A study of Homo sapiens with 18 samples.

Results

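The 50 genes described here encode the machinery that shortens the poly(A) tail of mRNA, removes its cap and degrades the body. They were taken by symbol from a list of named factors; the rule used no measured value, but the list was drawn up with earlier results of these data known. All 50 were found among the 58051 genes listed in the count files, and all 50 passed the filter that left 14186 genes for testing. They comprise 11 genes of the CCR4-NOT deadenylase complex, 3 genes of the PAN2-PAN3 and PARN deadenylases, 7 genes of the decapping enzyme and its activators, and 7 of the LSM1-7 ring. The others are both 5′-3′ exonucleases, 9 exosome core genes, 4 genes of 3′-5′ exonucleases and 7 nonsense-mediated decay factors.

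RNA was sequenced from 18 libraries of hTERT RPE-1, a human retinal pigment epithelial line immortalised with a telomerase transgene. According to the labels, all cells were serum starved for 48 h in 0.1% FBS, which holds them in G0/G1. The etoposide arm received 50 µM etoposide, a topoisomerase II poison, for 30 min, and was sampled at time points 0, 20 and 40 of 10 µM triptolide, which blocks transcription. The DMSO arm received no etoposide and was sampled at the same time points. Each of the 6 groups held 3 libraries, called independent replicates and numbered 1 to 3. The labels give no unit for the time points, and do not say whether triptolide was present at 0. Because transcription was blocked, the comparison of 40 with 0 addresses how far each mRNA was lost, and the comparison of the arms addresses whether etoposide altered that loss. Values are relative to each library's total, so a loss shared by all mRNAs would not be seen. In these bulk libraries, fewer cells of a type and less RNA per cell cannot be told apart.

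Cytoplasmic mRNA decay usually begins with deadenylation. PAN2-PAN3 and CCR4-NOT trim the tail, the LSM1-7 ring and PATL1 bind the shortened end, and DCP2 removes the cap, after which XRN1 degrades the body from the 5′ end. The exosome degrades from the 3′ end, and nonsense-mediated decay sends transcripts with premature stop codons into the same routes. Short-lived mRNAs are often marked by AU-rich elements in the 3′ untranslated region (UTR), which are bound by adaptors such as ZFP36 that recruit CCR4-NOT.

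That element is shown first, as background. Its frequencies are a description, with no test. The nonamer TTATTTATT was sought on the sense strand of the annotated 3′ UTR of 1 coding transcript per gene (GENCODE 29), where overlapping matches count separately. It occurred in 2 of the 49 machinery genes with an annotated 3′ UTR (4.08%), namely EXOSC6, with 2 copies, and UPF1, with 1. It occurred in 4 of 15 adaptor genes (26.7%), and in 8.77% of the 12069 tested coding genes with a 3′ UTR. The median 3′ UTR lengths were 1016 bases for the machinery, 2164 bases for the adaptors and 1149 bases for the tested coding genes, so the windows searched were not of equal length. The sites below are 30 bases of the GRCh38 sequence, read 5′ to 3′ on the strand of the gene with 1 nonamer in capitals. In EXOSC6 and PELO, with 2 copies each, the second copy overlaps the first and ends in lower case. The sites belong to the 2 machinery genes that hold the nonamer and to 4 cofactor genes. These 4 were picked because they hold it and were called lower at 40 in at least one of the fits given below. This choice is no sign that the nonamer goes with loss. Of 63 cofactor genes, 12 hold it (19.0%), and the other 8, RC3H2, EIF4E, ANGEL2, C1D, HBS1L, AGO1, AGO2 and TNRC6B, were not called lower, while BTG2, ZC3H12A, PNRC1 and PNRC2 lack it and were. Over all tested coding genes the median log2 change at 40 over 0 was −0.05 with the nonamer and 0.01 without it in the etoposide arm, and 0.02 with it and 0.01 without it in the DMSO arm.
EXOSC6, chr16:70247243-70247272, minus strand: tatatttattTTATTTATTtattaattatt
UPF1, chr19:18867923-18867952, plus strand: gcagggactcTTATTTATTcccattgctct
ZFP36, chr19:39409196-39409225, plus strand: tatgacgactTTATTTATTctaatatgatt
ZFP36L1, chr14:68788076-68788105, minus strand: aactgttggaTTATTTATTttagaaattcc
ZFP36L2, chr2:43223447-43223476, minus strand: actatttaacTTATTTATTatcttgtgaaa
PELO, chr5:52802673-52802702, plus strand: acatgctataTTATTTATTtatttttttgc

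The libraries held 7957691 to 11580219 counts each. Values are counts per 1000000 counts of the library (CPM), and 3 counts, the floor of detection, equal 0.259 to 0.377 CPM. Of 12 retinal pigment epithelium markers, 5 had a median of at least 1 CPM, among them OTX2 at 27.6 CPM and MITF at 38.4 CPM, whereas RPE65 (0.109 CPM), TYR (0 CPM), RGR (0 CPM) and TTR (0 CPM) were at or near 0. None of 5 blood markers had a median of at least 1 CPM, and 4 of 6 mesenchymal markers and 3 of 5 epithelial markers did. Some libraries stood apart. The etoposide library of replicate 2 at time point 20 held the highest value of 13 of the 50 machinery genes, against 9.13% of all tested genes, and the DMSO library of replicate 2 at 0 held up to 2450 CPM of the marker BEST1, whose median was 5.73 CPM. The DMSO library of replicate 1 at 40 was highest for 7 machinery genes and lowest for 8 (10.1% and 10.0% of all tested genes). Such extremes were not confined to these libraries. The DMSO library of replicate 2 at 20 was highest for 5 machinery genes (11.1% of all tested genes). The etoposide library of replicate 3 at 0 was lowest for 8 (8.24%). The DMSO library of replicate 2 at 0 was highest for 3 and lowest for 1 (8.53% and 6.46%).

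In both arms the mRNAs of the decay machinery were still present at time point 40 at close to their share at 0. By edgeR's quasi-likelihood test with Benjamini-Hochberg adjustment over all 14186 genes, 0 of 50 were called at an adjusted p below 0.05 in the etoposide arm, where 29 genes in all (0.204%) were lower and 0 (0.0%) higher. In the DMSO arm 0 of 50 were called, where 60 genes (0.423%) were lower and 0 (0.0%) higher. With such background shares, a count of 0 among 50 genes is near the background. At an unadjusted p below 0.05 there was 1 machinery gene with etoposide (3.04% of all genes) and there were 2 with DMSO (4.06%). DESeq2 called 0 of 50 in each arm, where 68 of all genes were lower with etoposide and 107 with DMSO. At an unadjusted p below 0.05 it gave 0 of 50 with etoposide (2.92% of all genes) and 2 with DMSO (3.88%). With limma-voom 0 of 50 were called in each arm, where 30 and 48 of all genes were lower. At an unadjusted p below 0.05 it gave 1 of 50 with etoposide (3.17% of all genes) and 2 with DMSO (3.36%).

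The sizes of change bear on this more directly than the calls do. The median log2 change of the 50 genes at 40 over 0 was −0.007 with etoposide, against 0.003 over all tested genes, and 0.03 with DMSO, against 0.006. Single genes ranged from −0.54 to 0.45 with etoposide and from −0.43 to 0.34 with DMSO, and 26 and 21 of the 50 were negative (52.0% and 42.0%, against 49.3% and 48.7% of all tested genes). The 95% interval of the change, unadjusted for the number of genes, lay wholly above a log2 change of −1, which is a loss to 50.0%, for 45 of 50 genes with etoposide (90.0%, against 78.8% of all tested genes). It did so for 47 of 50 with DMSO (94.0%, against 79.5%). The genes without this were CNOT3, PARN and LSM2 in both arms and, with etoposide, CNOT6L and DCP2. With the replicate number in the model the intervals of all 50 lay above −1 in both arms, against 88.3% and 87.7% of all tested genes, and those of 43 with etoposide (86.0%, against 67.5%) and 45 with DMSO (90.0%, against 68.3%) lay above −0.5.

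**Figure D1:**
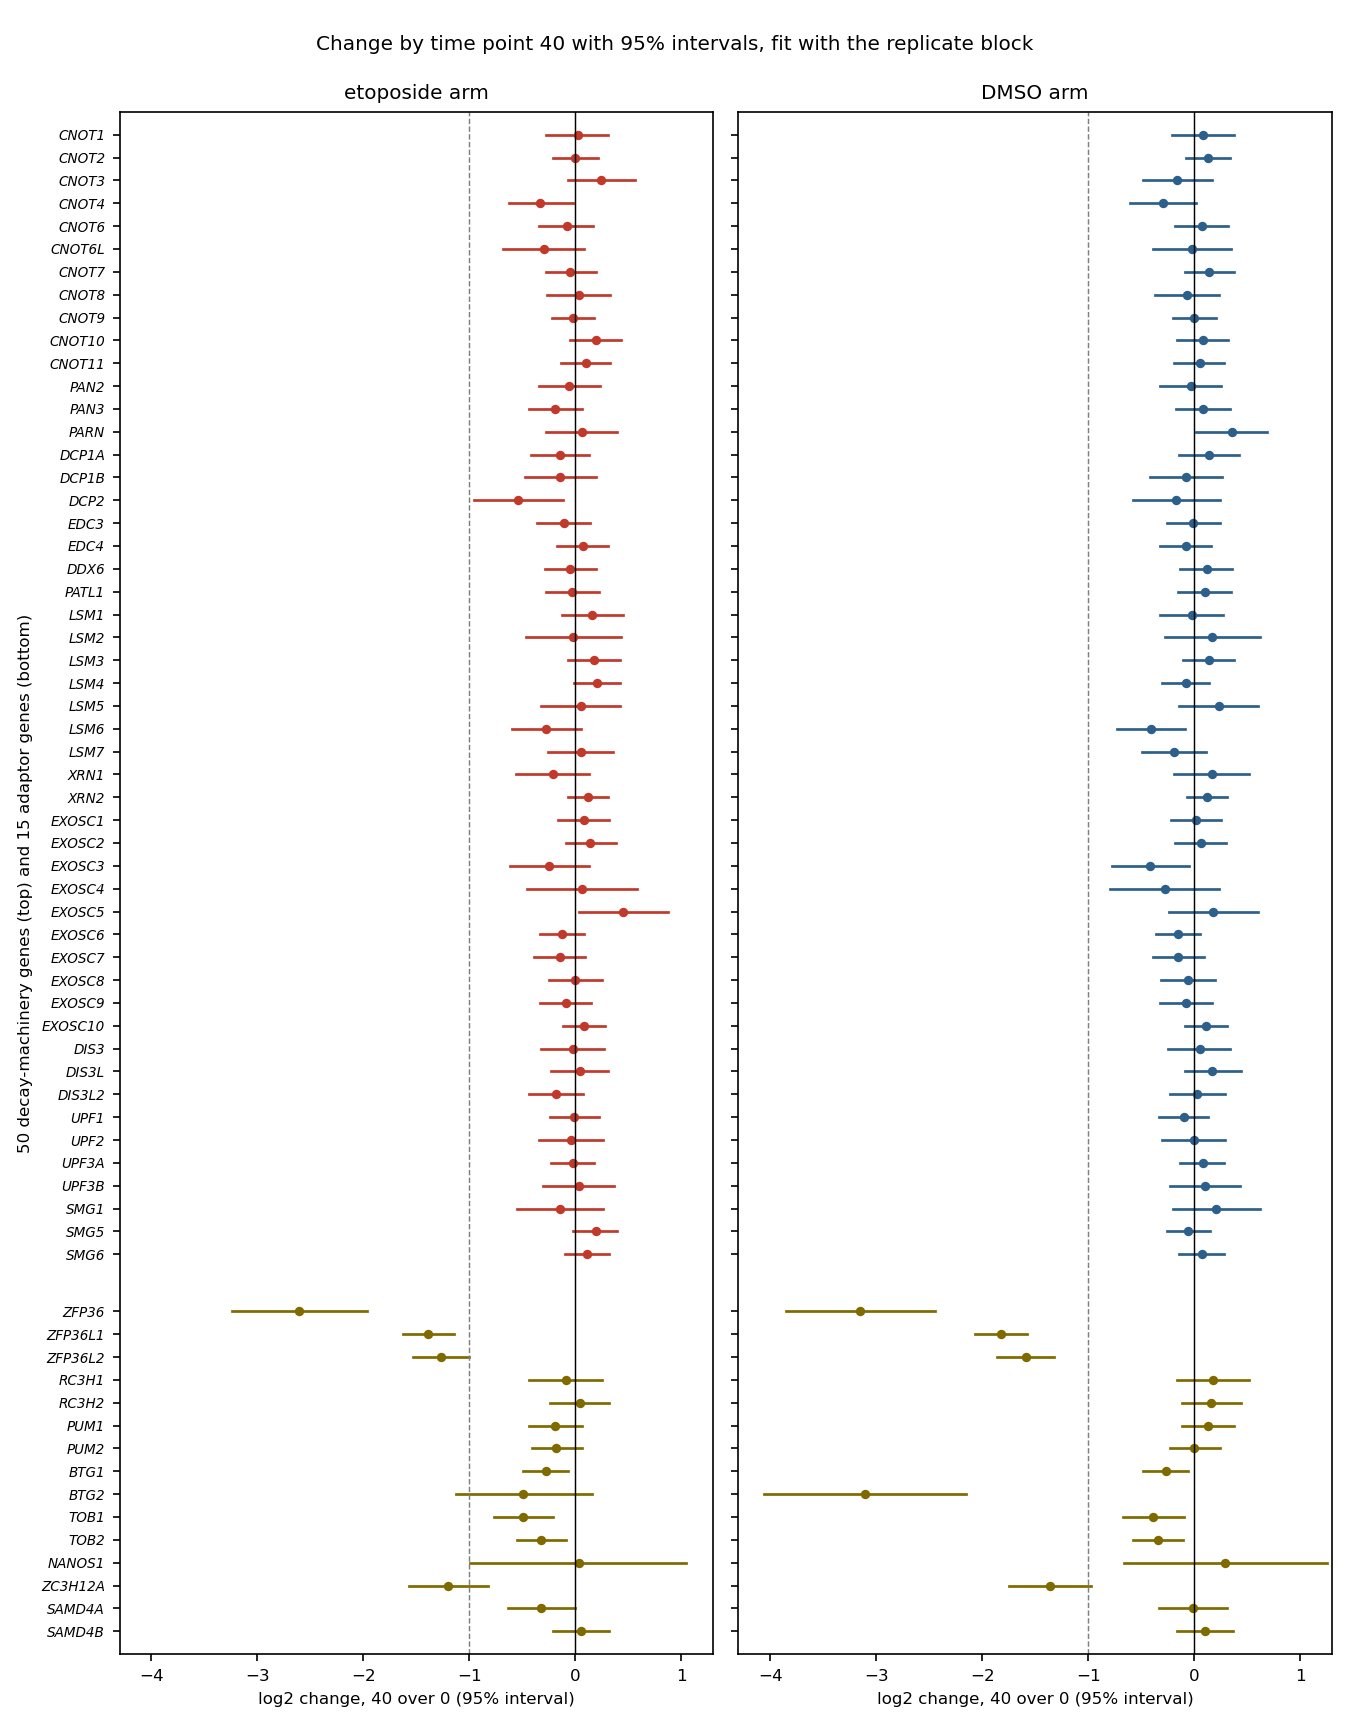
Log2 change of each gene at time point 40 over 0 (horizontal axis) with its 95% interval, from the fit with the replicate number as a block, in the etoposide arm (left) and the DMSO arm (right); the dashed line marks −1. All 50 decay-machinery intervals (top) lie to the right of the dashed line, while ZFP36 and ZFP36L1 among the 15 adaptor genes (bottom) lie wholly to its left in both arms.

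By role, the median log2 change at 40 over 0 lay between −0.12 and 0.05 with etoposide and between −0.08 and 0.15 with DMSO. In CCR4-NOT, 5 of 11 genes were negative with etoposide (median 0.00) and 3 of 11 with DMSO (median 0.05). Among the decapping enzyme and activators 6 of 7 were negative with etoposide (median −0.12) and 4 of 7 with DMSO (median −0.01). In the exosome core 4 of 9 were negative with etoposide (median 0.01) and 6 of 9 with DMSO (median −0.08). Among nonsense-mediated decay factors 4 of 7 were negative with etoposide and 3 of 7 with DMSO. No gene of any role group passed the test.

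CNOT4, the E3 ubiquitin ligase associated with CCR4-NOT, was the gene of the complex with the smallest p in each arm. In the etoposide arm it had 16, 17.5 and 20.3 CPM at 40, against 22.3, 21.5 and 23.4 CPM at 0 (replicates 1 to 3). In the DMSO arm it had 15.8, 17.6 and 21.3 CPM at 40, against 20.0, 22.3 and 24.6 CPM at 0. It was lower at 40 in all 6 same-numbered pairs, and its groups did not overlap with etoposide but did with DMSO. The log2 changes were −0.32 (SE 0.167, adjusted p = 1 by edgeR) with etoposide and −0.29 (SE 0.167, adjusted p = 1) with DMSO, which is 80.1% (interval 62.6 to 102%) and 81.7% (63.9 to 104%) of the level at 0. Groups did not overlap, in the lower direction, for 2 machinery genes with etoposide (CNOT4 and EXOSC3; 4.83% of all tested genes) and for 2 with DMSO (LSM6 and EXOSC6; 4.42%). In the higher direction they did not overlap for 3 with etoposide (CNOT10, XRN2 and EXOSC5; 3.09%) and for 0 with DMSO (1.78%). Of the 50, 13 were lower in each same-numbered pair with etoposide (26.0%, against 17.6% of all tested genes). With DMSO 4 were lower in each pair (8.0%, against 14.6%). Higher in each such pair were 9 of the 50 with etoposide and 5 with DMSO. For this direction the share of all tested genes is not available here, so these counts cannot be set against a background.

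DCP2, the catalytic subunit that removes the cap, had the lowest estimate of the 50 in the etoposide arm. Its level there was 25.6, 15 and 29.6 CPM at 0, 14.5, 20.3 and 21.6 CPM at 20, and 11.4, 15.5 and 21.4 CPM at 40. In the DMSO arm it was 20.0, 19.7 and 33.5 CPM at 0, 19.4, 14.7 and 24.8 CPM at 20, and 24.9, 16.5 and 22.1 CPM at 40. The groups overlapped in both arms, and with etoposide replicate 1 had the widest gap and replicate 2 none. The log2 change at 40 with etoposide was −0.54 (SE 0.303, 95% interval −1.19 to 0.10, adjusted p = 1 by edgeR), and within replicates 1, 2 and 3 it was −1.13, 0.05 and −0.46. It was −0.34 without the etoposide library of replicate 1 at 40 and likewise without that of replicate 3 at 0. With the replicate block the interval was −0.96 to −0.12 (adjusted p = 0.44 by edgeR), so that DCP2 was not called in either fit.

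In the exosome core, a barrel of catalytically inactive subunits that feeds RNA to DIS3, the smallest p values fell on EXOSC5 and EXOSC3 in different arms. EXOSC5, which had the lowest total count of the 50, had 9.48, 7.83 and 7.09 CPM at 40 with etoposide, against 6.33, 5.82 and 5.69 CPM at 0. The groups did not overlap, and the log2 change was 0.45 (SE 0.209, adjusted p = 1 by edgeR). EXOSC3, an RNA-binding cap subunit, had 15.2, 12.9 and 11.7 CPM at 40 with DMSO, against 14.2, 22.3 and 17.2 CPM at 0. These groups overlapped, replicate 1 was slightly higher at 40, and the log2 change was −0.43 (SE 0.189, adjusted p = 1 by edgeR). It was −0.24 without the DMSO library of replicate 2 at 0, one of those that stood apart, which holds the 22.3 CPM.

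**Figure D2:**
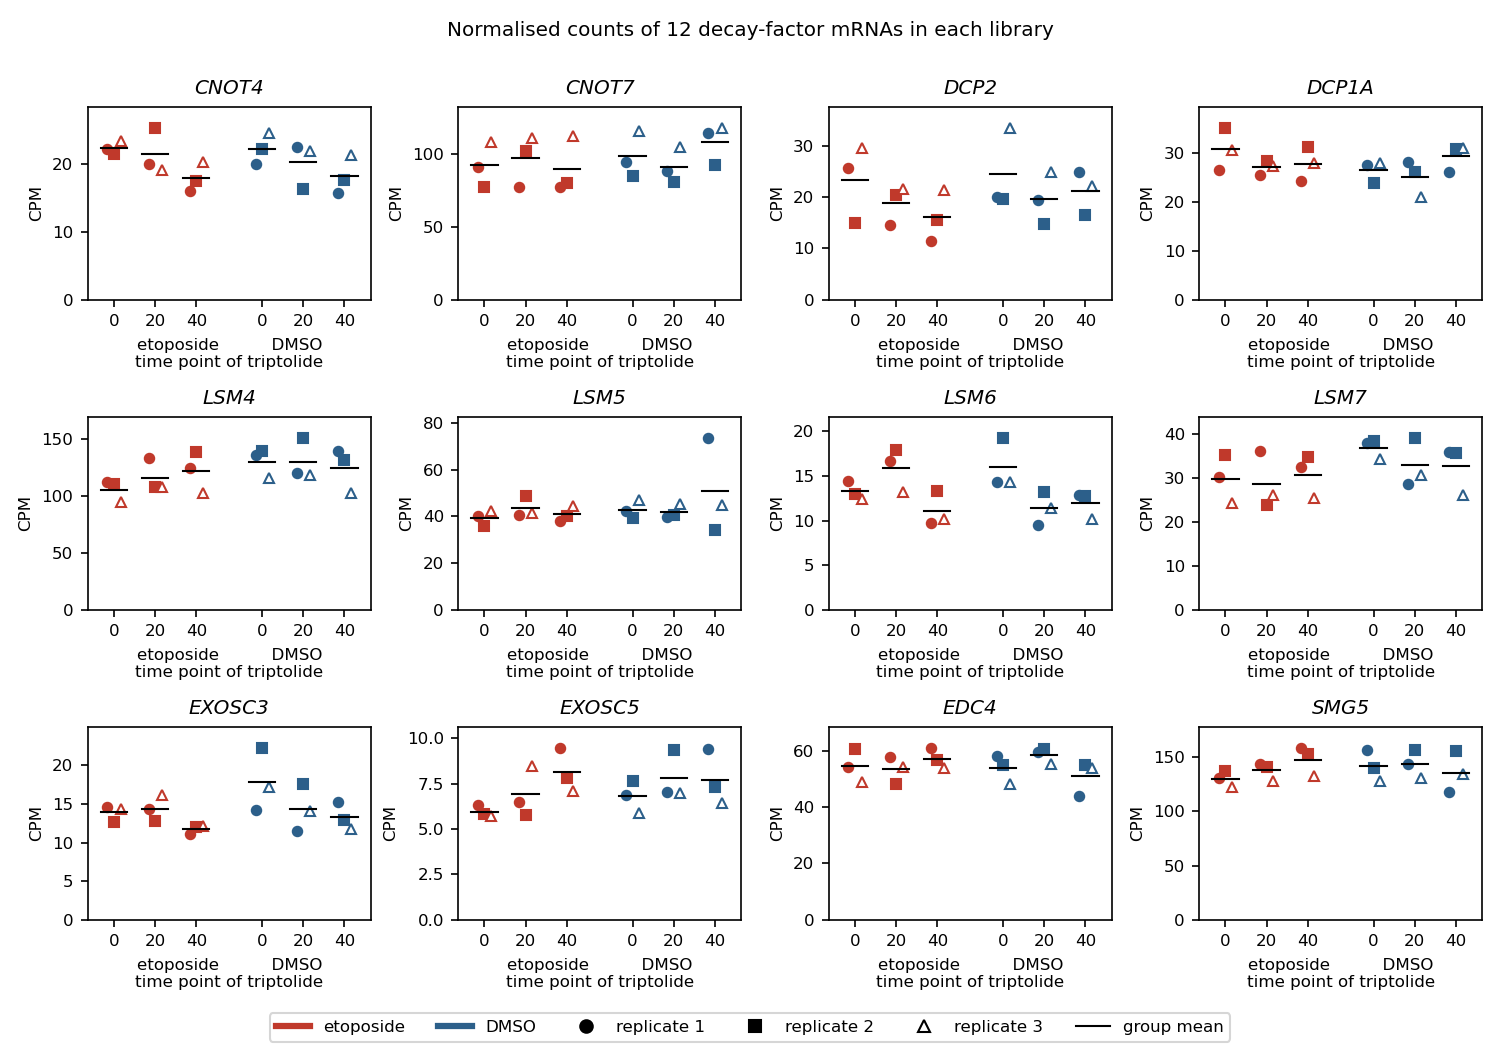
TMM-scaled CPM (vertical axis) of 12 decay-factor mRNAs in every library, with etoposide (red) left of DMSO (blue) and time points 0, 20 and 40 within each arm; symbols mark replicates and bars the group means. CNOT4 is lower at 40 than at 0 in each replicate of both arms, and the LSM5 value of 73.7 CPM in the DMSO arm at 40 lies above its other libraries.

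At time point 0, 0 of 50 genes differed between etoposide and DMSO by edgeR's quasi-likelihood test (0.0% of all tested genes were called in either direction). At an unadjusted p below 0.05 there were 0 (2.66% of all tested genes). DESeq2 and limma-voom also called 0 of 50, and of all tested genes DESeq2 called 2 lower and 1 higher and limma-voom 0. Both gave 0 of 50 at an unadjusted p below 0.05 (2.37% and 1.93% of all tested genes). With the replicate block 0 were called and 2 were below it (4.0%, against 6.22% of all tested genes). The median log2 difference was −0.001, against −0.006 over all tested genes. The groups did not overlap, in the lower direction, for CNOT10 and LSM4 (2 genes; 3.07% of all tested genes) and in the higher direction for 0 (3.14%).

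All 7 genes of the LSM1-7 ring, the heteroheptamer that binds deadenylated 3′ ends, had a negative estimate at 0 (median −0.20, range −0.31 to −0.03), against 51.4% of all tested genes. None passed the test. LSM4, a subunit shared with the nuclear LSM2-8 ring, had 112, 110.0 and 94.2 CPM with etoposide, against 136, 139 and 116 CPM with DMSO. Each etoposide library was below each DMSO library, and the log2 difference was −0.31 (SE 0.154, 95% interval −0.63 to 0.02, adjusted p = 1 by edgeR). LSM7 had 30.1, 35.1 and 24.2 CPM with etoposide, against 37.9, 38.4 and 34.2 CPM with DMSO, groups that overlapped (log2 difference −0.31, SE 0.196, adjusted p = 1 by edgeR), and the difference was −0.17 without the etoposide library of replicate 3. Within replicates 1, 2 and 3, 4, 7 and 6 of the 7 ring genes were negative. The ring's genes share libraries and are not independent. In the exosome core 8 of 9 genes were negative at 0 (median −0.18), and within the replicates 5, 8 and 6 of 9 were. EXOSC3 had 14.6, 12.7 and 14.3 CPM with etoposide, against 14.2, 22.3 and 17.2 CPM with DMSO, groups that overlapped (log2 difference −0.37, SE 0.188, adjusted p = 1 by edgeR). Without the DMSO library of replicate 2 at 0, one of those that stood apart, 6 of 7 ring genes were negative (median −0.18) and 7 of 9 exosome core genes (median −0.10), LSM4 was −0.25, LSM7 −0.27 and EXOSC3 −0.18. At 20 the same comparison of the arms had 3 of 7 ring genes negative (median 0.04) and 4 of 9 exosome core genes (median 0.00). At 40 it had 6 of 7 ring genes negative (median −0.11) and 6 of 9 exosome core genes (median −0.03). Within replicates 1, 2 and 3 at 40, 7, 1 and 3 of the 7 ring genes were negative.

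At time point 40 the arms again differed for 0 of 50 genes (0.0% of all tested genes called in either direction by edgeR's quasi-likelihood test). At an unadjusted p below 0.05 there were 0 (0.98% of all tested genes). DESeq2 and limma-voom called 0 of 50, while of all tested genes they called 1 and 0. With the replicate block 0 were called and 3 were below an unadjusted p of 0.05 (6.0%, against 3.51%). The groups overlapped for all 50 (1.47% of all tested genes did not overlap in the lower direction, and 2.64% in the higher). The median log2 difference was −0.046, against −0.005 over all tested genes, and 35 of 50 were negative (70.0%, against 51.1%). Within replicates the medians were −0.067, −0.028 and −0.022, with 29, 30 and 33 genes negative. The 50 genes share libraries and are not independent. At 20 the comparison of the arms went the other way, with 17 of 50 negative (34.0%, against 49.3% of all tested genes). The smallest p values at 40 belonged to LSM5, CNOT7 and EDC4. LSM5 had 37.9, 40.2 and 44.4 CPM with etoposide, against 73.7, 34.0 and 44.9 CPM with DMSO. Its log2 difference of −0.32 (SE 0.202, adjusted p = 1 by edgeR) was 0.05 without the DMSO library of replicate 1. CNOT7, a catalytic deadenylase of CCR4-NOT, had 77.6, 79.8 and 112 CPM with etoposide, against 114, 92.4 and 118 CPM with DMSO (log2 difference −0.27, SE 0.186, adjusted p = 1 by edgeR), and was lower in each same-numbered pair. Leaving out 1 library moved this difference to between −0.46, without the etoposide library of replicate 3, and −0.17, without that of replicate 1. EDC4, a scaffold of the decapping complex, had 61.2, 56.8 and 53.9 CPM with etoposide, against 44.0, 55.2 and 53.8 CPM with DMSO (log2 difference 0.17, SE 0.126, adjusted p = 1 by edgeR), and the difference was 0.07 without the DMSO library of replicate 1. On the same strand, 21.2% of the exon bases of EDC4 are shared with another annotated gene, so its count is uncertain.

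The change from 0 to 40 with etoposide minus that with DMSO, the interaction, measures whether etoposide altered the loss. It was called for 0 of 50 genes (0.0% of all tested genes in either direction by edgeR). It was at an unadjusted p below 0.05 for 0 by edgeR, DESeq2 or limma-voom (1.34%, 1.2% and 1.13% of all tested genes). Its median was −0.026, against −0.006 over all tested genes. The smallest p values belonged to DCP1A, a cofactor of DCP2 (−0.30, SE 0.21, 95% interval −0.74 to 0.14), to SMG5, which recruits decay enzymes to UPF1 (0.25, SE 0.174, interval −0.12 to 0.62), and to LSM4 (0.28, SE 0.218, interval −0.18 to 0.74), each with adjusted p = 1 by edgeR. Leaving out 1 library took the smallest of these estimates to −0.19 for DCP1A (etoposide replicate 2 at 0), 0.15 for SMG5 (DMSO replicate 1 at 40) and 0.16 for LSM4 (DMSO replicate 3 at 40). For 43 of the 50 the interval of the interaction lay above −1 (86.0%, against 69.5% of all tested genes). With the replicate block it lay above −1 for all 50 (against 83.0%) and above −0.5 for 34 (68.0%, against 52.8%). As for each arm, these shares depend on how well the genes were counted and do not compare stability.

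At time point 20, 0 of 50 genes were called in either arm, between arms or in the interaction (0.0% of all tested genes each by edgeR). At an unadjusted p below 0.05 edgeR gave 0 genes with etoposide (1.0% of all tested genes), 1 with DMSO (1.4%), 1 between the arms (0.761%) and 1 in the interaction (0.98%), where 1 of 50 is 2.0%. In the fit with the replicate block 1, 1, 2 and 1 were below it (2.73%, 2.76%, 2.5% and 2.36% of all tested genes in that fit). The gene of the fit without the block was LSM6, which was chosen for description after its values at 20 were seen. LSM6 had 14.4, 13 and 12.4 CPM at 0, 16.7, 17.9 and 13.2 CPM at 20, and 9.75, 13.3 and 10.2 CPM at 40 with etoposide. With DMSO it had 14.3, 19.3 and 14.3 CPM at 0, 9.45, 13.2 and 11.4 CPM at 20, and 12.9, 12.8 and 10.2 CPM at 40. At 20 it was higher than at 0 in each same-numbered pair with etoposide and lower in each with DMSO. The interaction at 20 was 0.75 (SE 0.267, 95% interval 0.19 to 1.32, adjusted p = 1 by edgeR), and ranged from 0.60 to 0.90 when single libraries or replicate 3 were left out. By 40 it was 0.15 (SE 0.267, 95% interval −0.41 to 0.72). The median of the 50 genes between the arms at 20 was −0.095, 0.186 and 0.012 within replicates 1, 2 and 3, against 0.053 over all libraries. The etoposide library of replicate 2 at 20 is one of those that stood apart.

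The libraries differed by replicate number more than by group. Replicate number accounted for a median of 34.9% of the sum of squares of log2 CPM of the 50 genes (39.9% for all tested genes), and group for 16.5% (16.2%). For PARN, LSM2 and CNOT3, chosen for description after their values were seen, replicate number accounted for 99.7%, 99.5% and 97.4%. PARN, the poly(A)-specific ribonuclease that acts on maturing noncoding RNAs and some mRNAs (chr16:14435701-14632728, minus strand), had 0 to 0.211 CPM in the 6 libraries of replicate 3, from 3 counts in all, and 31.7 to 42.9 CPM in replicates 1 and 2, from 4520 counts. LSM2, a ring subunit (chr6:31797396-31806984, minus strand), had 0 to 0.125 CPM in replicate 3, from 1 count, and 11.6 to 19.0 CPM in replicates 1 and 2, from 1782 counts. CNOT3, a structural subunit of CCR4-NOT (chr19:54137717-54155708, plus strand), had 2.62 to 4.95 CPM in replicate 3 and 26.5 to 42.9 CPM in replicates 1 and 2. The ranges of replicate 3 and of the others do not meet for any of the 3 genes, in either arm and at every time point. Replicate 3 held under 0.2 of the mean of replicates 1 and 2 for these 3 of 50 genes (6.0%), and for 212 of the 10803 tested genes above 5 CPM in replicates 1 and 2 (1.96%). The column headers of replicate 3 differ in form from those of the other replicates; whether processing differed was not tested, and cells and processing cannot be told apart here. In the fit without the replicate number these genes had the widest intervals.

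**Figure D3:**
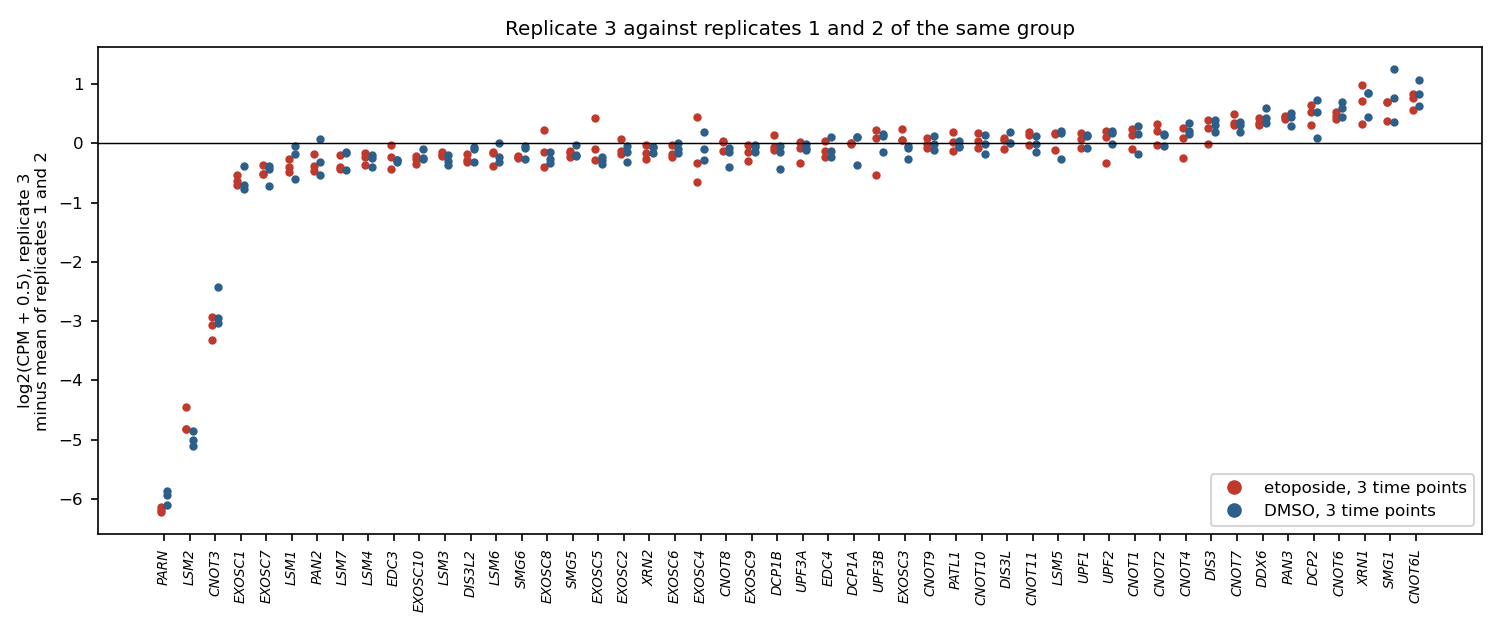
Log2(CPM + 0.5) of replicate 3 minus that of the mean of replicates 1 and 2 in the same group (vertical axis) for the 50 genes (horizontal axis), with 3 etoposide groups (red) and 3 DMSO groups (blue) each. PARN, LSM2 and CNOT3 lie far below 0 in all 6 groups, and CNOT6L, SMG1 and XRN1 lie above 0 in all 6.

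Replicate 3 was also at an extreme for other members, at shares near those of all tested genes. The counts below include CNOT3, PARN and LSM2 again. Replicate 3 was the highest of the 3 replicates in all 6 groups for CNOT6, CNOT6L, CNOT7, PAN3, DDX6, XRN1 and SMG1 (7 genes, 14.0%, against 15.4% of all tested genes), and the lowest in all 6 for CNOT3, PARN, LSM2, LSM3, EXOSC1, EXOSC7 and EXOSC10 (7 genes, 14.0%, against 14.4%). XRN1 averaged 45.7 CPM in replicate 3 and 27.9 CPM in replicates 1 and 2. SMG1, the kinase that phosphorylates UPF1, averaged 106 CPM in replicate 3 and 65.5 CPM in the others. SMG1 has near-identical pseudogene copies in the genome, so its count is uncertain.

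Levels between genes were compared per kb of the union of annotated exons. The 50 genes had a median of 8.3 CPM per kb, against 5.86 for 12177 tested coding genes, and 33 of them were above that coding-gene median. XRN2, the nuclear 5′-3′ exonuclease of transcription termination, was highest on this scale at 50.3 ± 3.97 CPM per kb (SD over 18 libraries), and its cytoplasmic relative XRN1 had 2.82 ± 0.866 CPM per kb. Among decapping factors, PATL1, which bridges the ring and the decapping enzyme, had 27.6 ± 3.07 CPM per kb and the RNA helicase DDX6 had 16.5 ± 2.84, while DCP2 was lowest with 2.07 ± 0.57. In CCR4-NOT the lowest was CNOT6L, a catalytic subunit, with 2.25 ± 0.759 CPM per kb, and CNOT11 was highest with 20.8 ± 1.74, within the spread of the scaffold CNOT1 at 18.8 ± 2.36. In the ring LSM4 was highest at 40.0 ± 5.28 and LSM6 lowest at 3.32 ± 0.674 CPM per kb. In the exosome core EXOSC8 was highest (14.7 ± 1.74) and EXOSC3 (4.72 ± 0.913) and EXOSC5 (4.85 ± 0.845) were lowest and overlapped. Of the 3′-5′ exonucleases EXOSC10 was highest (14.6 ± 1.51) and DIS3L2, which degrades uridylated RNAs, lowest (1.95 ± 0.212). Of the nonsense-mediated decay factors SMG5 was highest (26.3 ± 2.38) and SMG1 lowest (3.05 ± 0.926). With the length of 1 coding transcript in place of the exon union, 22 of the 50 kept their rank within their role, and the highest gene stayed the same in 5 of the 8 role groups, as did the lowest in 5. LSM4 (63.5) and LSM7 (60.3) were then above XRN2 (50.3 CPM per kb of transcript), and CNOT2 (24.5) and CNOT1 (24.1) were above CNOT11 (22.3). DDX6 (30.7) was above PATL1 (29), EXOSC5 (6.45) was below EXOSC3 (7.9), DIS3 (5.6) was below DIS3L2 (6.31), and PAN2, PAN3 and PARN all changed rank. The order within and between groups, its ends included, thus depends on the length used. It also depends on replicate 3, which held few counts of PARN, LSM2 and CNOT3. Per kb of exon union, PARN had 5.55 CPM over 18 libraries, against 6.73 for PAN2. In replicates 1 and 2 alone PARN had 8.31, against 7.18 for PAN2. There LSM2 had 13.3 in place of 8.91, and CNOT3 had 5.05 in place of 3.56.

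**Figure D4:**
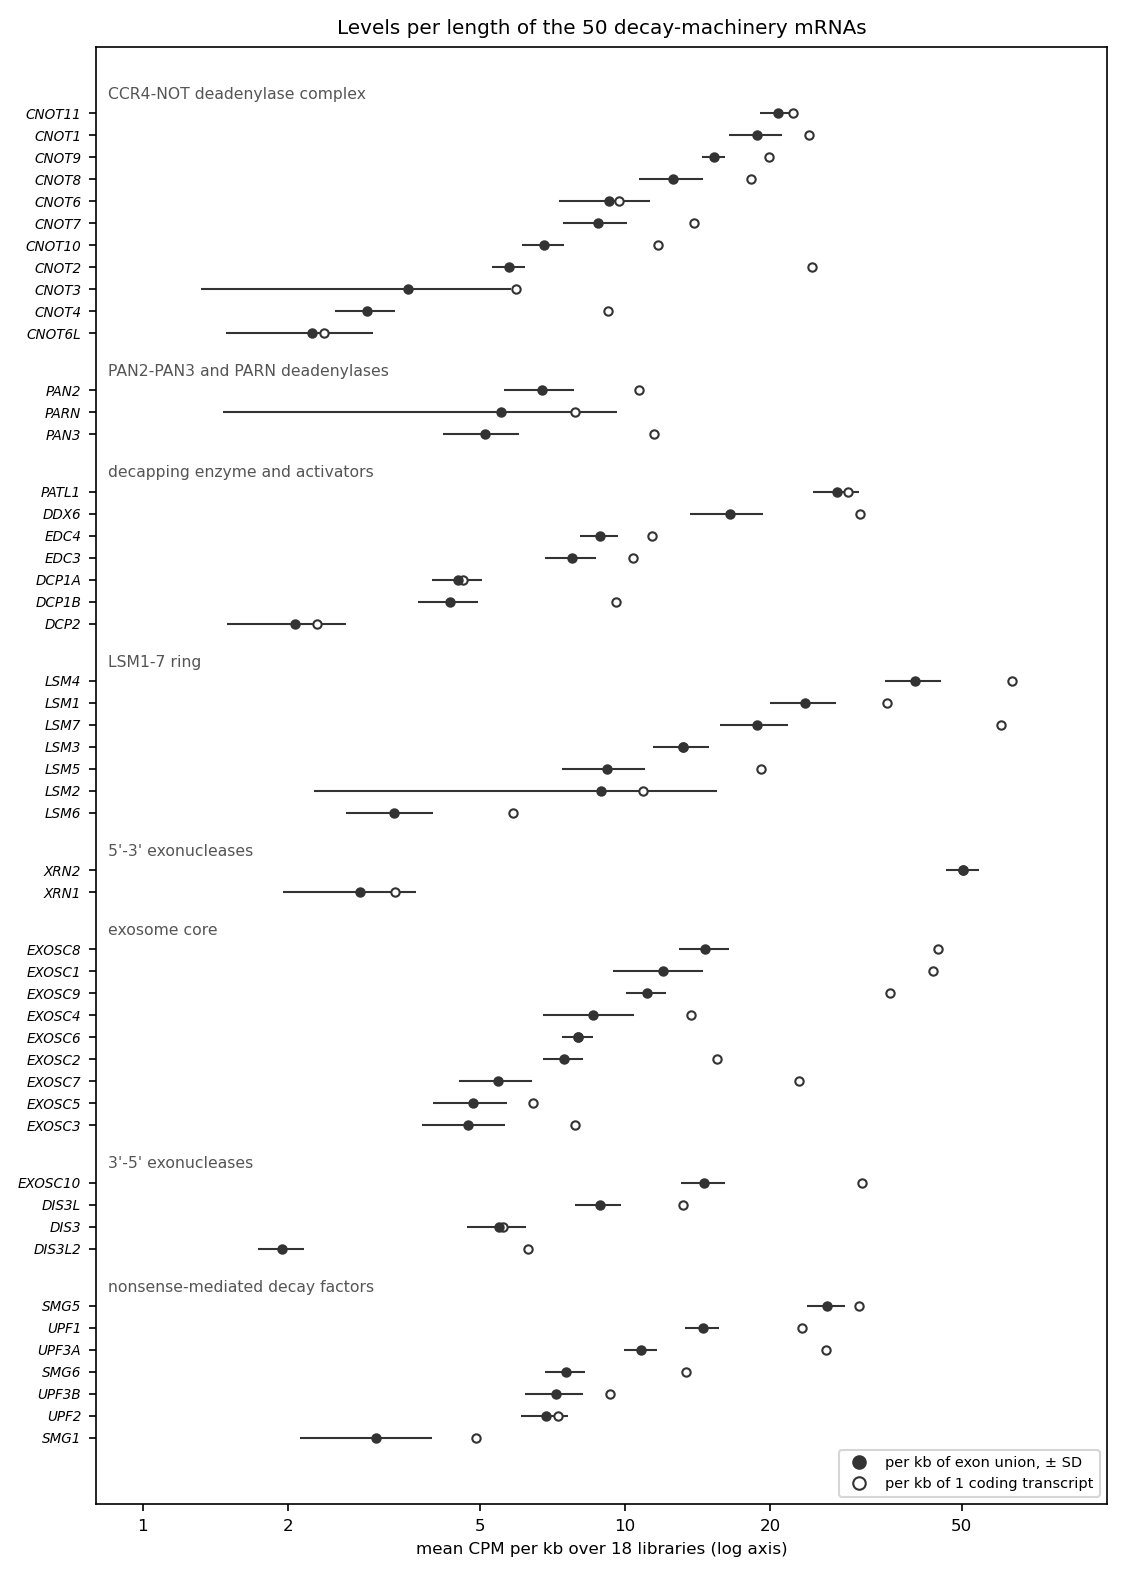
Mean CPM per kb over 18 libraries (horizontal, log axis) of the 50 genes by role, per kb of exon union with SD bars (filled) and per kb of 1 coding transcript (open). XRN2 and LSM4 are at the high end by exon union, and DIS3L2, DCP2 and CNOT6L are at the low end.

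For comparison, 63 other genes of the pathway, listed by role, were tested in the same fit. In the etoposide arm 2 of 63 fell at 40 (0.204% of all tested genes were lower). In the DMSO arm 4 of 63 fell (0.423%). All of these were adaptors that recruit CCR4-NOT, and 0 of 63 rose in either arm (0.0%). With the replicate block 6 of 63 fell with etoposide (1.01% of all tested genes were lower) and 8 of 63 fell with DMSO (1.21%, and 0.0141% were higher), while 0 of the 50 machinery genes did in either arm, with 3 at an unadjusted p below 0.05 in each (6.0%, against 6.43% of all tested genes with etoposide and 8.02% with DMSO). The lowest adjusted p of a machinery gene in that fit was 0.44 with etoposide (DCP2) and 0.381 with DMSO (LSM6). The 15 adaptors had a median log2 change of −0.30 with etoposide and −0.28 with DMSO, and the other 6 role groups of the 63 had medians between −0.21 and 0.08 with etoposide and between −0.09 and 0.13 with DMSO.

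ZFP36L1, which binds AU-rich elements and recruits CCR4-NOT, had 96.3, 92.0 and 70.4 CPM at 40 with etoposide, against 251, 230.0 and 197 CPM at 0. With DMSO it had 72.5, 70.7 and 68.3 CPM at 40, against 295, 245 and 213 CPM at 0. No library at 40 reached any at 0, and ZFP36L1 fell by 1.39 on the log2 scale with etoposide (SE 0.154, adjusted p = 0.000319 by edgeR) and by 1.83 with DMSO (SE 0.156, adjusted p = 1.3e-05). Its relative ZFP36L2 fell by 1.28 with etoposide (SE 0.238, adjusted p = 0.0303 by edgeR) and by 1.57 with DMSO (SE 0.24, adjusted p = 0.00412). ZFP36 had 5.34, 5.01 and 1.22 CPM at 40 with etoposide, against 26.0, 31.0 and 13.2 CPM at 0. With DMSO it had 1.25, 4.05 and 0.949 CPM at 40, against 25.6, 21.0 and 10.2 CPM at 0. ZFP36 fell by 3.16 with DMSO (SE 0.598, adjusted p = 0.0288 by edgeR); with etoposide its log2 change was −2.59 (adjusted p = 0.116), which was called with the replicate block (adjusted p = 2.78e-05). Calls of the fit without the block were lost with 1 library left out: that of ZFP36L2 with etoposide without any of its 6 libraries at 0 and 40 (adjusted p = 0.0743 to 0.199 by edgeR), that of ZFP36L2 with DMSO without replicate 1 at 40 (0.0523), and that of ZFP36 with DMSO without replicate 1 or 2 at 0 or replicate 1 or 3 at 40 (0.0861 to 0.187). ZFP36L2 was also not called with ribosomal protein gene scaling (adjusted p = 1 with etoposide and 0.568 with DMSO by edgeR), nor ZFP36L1 with etoposide when the compared groups were fitted alone (0.071). Of 15 other settings, these included, 2 lost the call of ZFP36L2 in each arm and 4 that of ZFP36 with DMSO. The difference of these log2 changes between arms was not called for any of the 3 genes (adjusted p = 1 by edgeR). The machinery genes that carry the same nonamer were not called. EXOSC6 had 39.0, 40.4 and 35.1 CPM at 40 with etoposide, against 44.4, 43.6 and 37.3 CPM at 0, a log2 change of −0.13 (SE 0.109), and UPF1 had 131, 130.0 and 124 CPM at 40, against 124, 129 and 134 CPM at 0, a log2 change of −0.01. Whether the nonamer bears on these values was not tested.

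**Figure D5:**
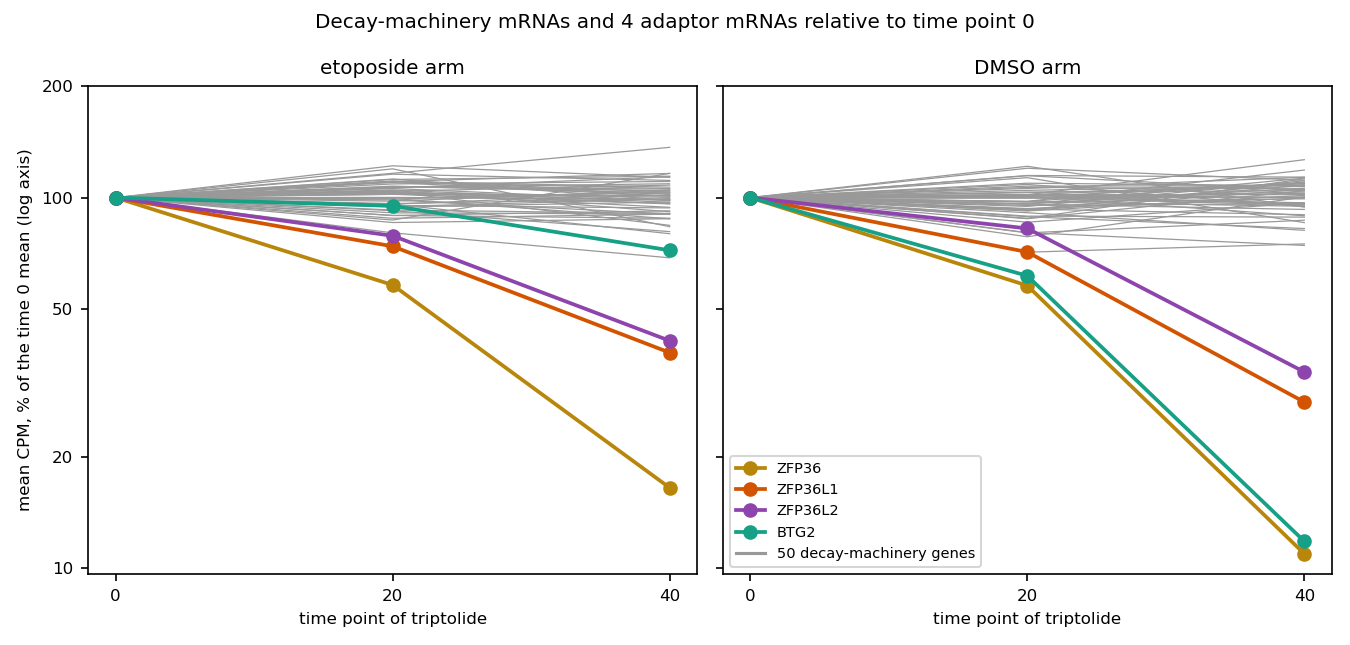
Group mean CPM as a percentage of the mean at time point 0 (vertical, log axis) against time point in the etoposide arm (left) and the DMSO arm (right), for the 50 decay-machinery genes (grey) and 4 adaptors. The grey lines lie between 68.8% and 137% of the level at 0 while ZFP36, ZFP36L1 and ZFP36L2 are lower at 20 and at 40 in both arms.

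BTG2, an adaptor that binds the CCR4-NOT deadenylases and is a textbook p53 target, was the cofactor with the widest gap between the arms. At 40 it had 7.64, 6.26 and 2.22 CPM with etoposide, against 0.192, 0.88 and 0.422 CPM with DMSO, where 1 library was below the 3-count floor of 0.281 CPM. The groups did not overlap, and the log2 difference was 3.39 (SE 0.574, adjusted p = 0.324 by edgeR), which was called with the replicate block (3.37, adjusted p = 0.0029; 0.00705% of all tested genes were higher in that fit) and by DESeq2 without it (3.42, adjusted p = 0.000215), but not by limma-voom (3.36, adjusted p = 1). At 0 it had 6.23, 10.9 and 5.18 CPM with etoposide, against 4.36, 4.0 and 4.27 CPM with DMSO. BTG2 fell by 3.03 from its level at 0 in the DMSO arm (SE 0.574, adjusted p = 0.0241 by edgeR; 0.071 to 0.151 without DMSO replicate 1 or 2 at 0 or replicate 1 or 3 at 40), and its log2 change with etoposide was −0.47 (SE 0.479, adjusted p = 1). The fall of BTG2 with DMSO was also not called under 3 of 15 other settings. The interaction of BTG2 was 2.56 (SE 0.742, adjusted p = 1 by edgeR; 0.991 with the replicate block), so a difference in its loss between the arms did not pass the test.

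The remaining calls with the replicate block were cofactors with smaller falls. PNRC1 and PNRC2, which activate decapping, fell by 1.08 and 0.80 with etoposide and by 1.0 and 0.58 with DMSO. ZC3H12A, an endonuclease also listed among the adaptors, fell by 1.2 with etoposide and by 1.36 with DMSO, and the ribosome rescue factor PELO fell by 0.60 with DMSO. Adjusted p in that edgeR fit ranged from 0.000112 to 0.0476 over these genes, and none of them was called in the edgeR fit of all libraries without the block.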

How the data were processed

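Stranded mRNA sequencing of 18 libraries was analysed from raw counts per gene, deposited by the authors as unnormalised integers. The tools, per the submitters' processing notes, were bcl2fastq, HISAT2 and featureCounts on GRCh38 (hg38). Not given in the sources used here were their versions, the annotation, the strand setting and the handling of reads with several matches. The 57447 gene identifiers found in GENCODE 29 took their positions, lengths and 3′ UTRs from it.

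The counts were tested with edgeR 4.0.16 (R 4.3.3; quasi-likelihood, robust, TMM factors 0.978 to 1.02, default filter by group) in one model of the 6 groups, adjusted over all 14186 tested genes. CPM are TMM scaled; within-replicate log2 values use a pseudocount of 0.5 CPM. Standard errors and 95% intervals were derived from the F statistic. The scripts were tested on simulated data. Alternatives used DESeq2 1.42.0, limma 3.58.1, other scalings and filters, and left-out libraries.

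The replicate numbers come from the labels. In 45 of 45 pairs, libraries with the same number deviated from their group means in common (r over genes 0.359 to 0.911, minimum set at 0.1), so the numbers were taken as pairs, and a fit with the replicate number as a block is given where it changes a call or moves a printed count of genes by over 1.5 times, and for the intervals.

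Members and lists were chosen with earlier results of these data known. The text describes members called in either fit, the 3 with the smallest p in the comparisons at 0 and 40, those with the lowest counts, and the extremes of level in each role, and cofactors called in either fit; other members are named as chosen after their values were seen. Depth sets a floor of 3 counts, which covers counting error only.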

Additional observations from a re-analysis of the deposited data

How the results depend on the processing

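The count of 0 called decay-machinery genes of 50 held in all 9 comparisons under each of the 52 other settings run, the block fits with single libraries left out included. Of 612 log2 changes of named machinery genes under alternatives, 611 kept their direction and side of the threshold; the log2 difference of LSM5 between arms at 40 was 0.05 without the DMSO library of replicate 1 at 40, and ranged from −0.54 to 0.05 with single libraries or replicate 3 left out. The block changed no other call of a machinery gene. The median log2 change of the 50 genes also moved. Under 15 other settings it ranged from −0.1 to 0.001 at 40 over 0 with etoposide and from 0.013 to 0.06 with DMSO. Between the arms it ranged from −0.052 to 0.105 at 0 and from −0.058 to −0.019 at 40. The median interaction at 40 ranged from −0.135 to −0.016, and from −0.043 to 0.042 with 1 library or replicate 3 left out. The remaining values concern all tested genes and the 63 cofactors, and the cause of each was not tested.

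In the etoposide arm at 40 over 0 the count of all genes called was 143 with the replicate block, 18 with ribosomal protein gene scaling, 68 with DESeq2, 6 with the compared groups alone, and 12 to 36 when 1 library or replicate 3 was left out, against 29. The cofactors called were 6 with the block, 5 with DESeq2, 1 with the compared groups alone, 1 without 2 libraries that stood apart (DMSO replicate 2 at 0 and etoposide replicate 2 at 20; DMSO replicate 1 at 40 was kept), and 1 to 4 with 1 library or replicate 3 left out, against 2. In the DMSO arm at 40 over 0 the genes called were 173 with the block, 33 with ribosomal scaling, 108 with DESeq2, 12 with the compared groups alone, 38 without those 2 libraries, and 27 to 86 with 1 library or replicate 3 left out, against 60. The cofactors called were 8 with the block, 2 with limma-voom, 1 with the compared groups alone, 2 without those 2 libraries, and 1 to 5 with 1 library or replicate 3 left out, against 4. Between arms DESeq2 called 3 genes at 0 and 1 at 40, the block called 1 at 40, and leaving out a library or replicate 3 gave 0 to 1 at 40, against 0.

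With the replicate block and a second change (all but the last chosen after seeing the data), the genes called in the etoposide and DMSO arms at 40 and the cofactors called in each were 125, 135, 6 and 7 with ribosomal scaling, 198, 159, 7 and 7 without the 2 libraries, 134, 171, 6 and 8 with RLE scaling, 171, 182, 7 and 8 with library size scaling, and 56 and 98 genes and, with etoposide, 5 cofactors without replicate 3. Between arms the block called 1 gene at 40 under each of these, except 3 at 40 and 1 at 20 without the 2 libraries. Intervals in the fit without the block were wide enough to hold a loss to 50.0% for 5 machinery genes with etoposide.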
